A study of Mus musculus with 24 samples.

Results

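The transcripts described here are those of 10 heat shock chaperone genes of the mouse: *Hspa8*, *Hspa1a*, *Hspa1b*, *Hsph1*, *Hspa4l*, *Hsp90aa1*, *Chordc1*, *Dnajb1*, *Hspb1* and *Bag3*. They were chosen because the levels of *Hspa8*, *Hsph1* and *Chordc1* had been seen to shift together in all tissues of an animal, and the other genes of the group were added by family. The array named 21368 genes through the accessions of its probes, and 9 of the 10 genes were among them, with 12 of 55681 probes. No probe carried an accession of *Hspa1b*. *Hspa8* had 3 probes, *Hsph1* had 2 and each other gene had 1. All 12 probes were well above background on all 24 arrays and none was saturated. A gene is represented by its brightest probe unless another is named.

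Heat shock chaperones bind unfolded or aggregation-prone proteins and help them to refold or to be degraded. HSP70 proteins take up a substrate in a cycle driven by ATP, which J domain proteins of the HSP40 family start and which HSP110 and BAG proteins, as nucleotide exchange factors, complete. HSP90 acts later, on kinases, hormone receptors and other clients, and small heat shock proteins hold unfolded proteins without using ATP. Heat shock factor 1 drives many of these genes by binding repeats of the element nGAAn in their promoters. Heart and skeletal muscle are known for a high demand on the pair of BAG3 and small heat shock proteins, which clears damaged proteins of the contractile apparatus.

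RNA of 4 organs (brain, liver, skeletal muscle and heart) came from 3 WT male mice and 3 *Rap1* KI/KI male mice, which the sample labels call MUT, with 1 array for each mouse and tissue. *Rap1* KI/KI mice are homozygous for a CRISPR/Cas9 point mutation in *Rap1* (*Terf2ip*), present in every cell, which keeps the protein from binding TRF2 and telomeres. The strain is given as C57BL6 in the labels, and the line was backcrossed 4 times to C57BL/6N. The labelled age was 5 months for WT1 and KI1 and 2 months for WT2, WT3, KI2 and KI3, and no treatment is named. Brain and liver were extracted with one RNA kit and glass beads, heart and muscle with a fibrous tissue kit and zirconia beads, so kit and tissue pair cannot be told apart for those comparisons.

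The 75th percentile of the processed signal ranged from 470.7 to 1389 over the 24 arrays, and 56.5% to 72.7% of probes were well above background. Levels below are log2 signals minus the log2 of that percentile, so a level of 0 lies at the percentile of the array. The arrays lay on 3 slides: all livers and the brains of WT1 and KI1 on the first, the other brains and the hearts of WT1, WT2, KI1 and KI2 on the second, and the other hearts and all muscles on the third. The marker genes of hepatocytes, neurons and glia, cardiomyocytes and skeletal muscle fibres each had their highest summed level in the labelled tissue (10.7 to 11.7, 8.25 to 8.52, 10.5 to 11.4 and 11.7 to 12.1 on the log2 scale). The muscle sample of KI3 also held brain transcripts: *Gfap*, a marker of astrocytes, was at 1.94 there, against -2.60 in WT1 and -7.54 to -7.20 in the other muscles. *Nefl*, a neurofilament of axons, was at 0.69 in that muscle and at -0.83 and -2.44 in the hearts of KI3 and KI1, against -7.96 to -7.14 in the other hearts. Fat cell markers summed to 7.41 in the heart of KI1 and 8.58 in that of KI3, against 0.20 to 5.17 in the other hearts, and all 5 of them were above background on all 6 hearts. Neutrophil markers summed to 6.51 and 3.65 in the muscles of KI1 and KI3 and to -0.38 to 1.45 in the other muscles. The part of these cells in the results was not tested, and in whole tissue fewer cells of a type and less RNA per cell cannot be told apart.

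RefSeq promoter sequences (GRCm38.p6, 250 bases before to 50 bases after a start site) were at hand for 8 of the 10 genes, *Hspa8* and *Hsp90aa1* excepted. They were searched for the letters GAANNTTC and TTCNNGAA, which are pairs of inverted heat shock units, are each their own reverse complement and can overlap. Of the 10 promoters of these 8 genes, 7 held at least 1 such pair, against 15.1% of all 32851 promoters of the same length. The 7 belong to 6 genes. They include the near-identical promoters of *Hspa1a* and *Hspa1b* and the 2 listed promoters of *Hsph1*, which share their pairs. Runs of 3 units, GAANNTTCNNGAA or TTCNNGAANNTTC, were found in 3 of the 10 promoters, those of *Chordc1* and *Hsph1*, against 0.603% of all promoters. The 30 bases of each gene with the most pairs are printed 5′ to 3′ on the strand of the gene, to show that the spacing and number of the units differ between the genes, with the letters of the pairs in capitals:
Chordc1: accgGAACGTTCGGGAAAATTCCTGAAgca
Hsph1: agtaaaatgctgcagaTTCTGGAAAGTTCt
Hspb1: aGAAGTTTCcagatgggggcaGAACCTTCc
Hspa1a: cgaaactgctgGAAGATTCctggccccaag
Bag3: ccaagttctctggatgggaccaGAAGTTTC

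The *Chordc1* stretch lies at chr9:18292259-18292288 on the plus strand, from base -8, where base 1 is the start site and base -1 the one before it. It holds 4 overlapping pairs in a row, the most of these genes, and 1 more pair begins at base 34. The *Hsph1* stretch, with 2 overlapping pairs, lies at chr5:149636287-149636316 on the minus strand, from base 21 of the first of 2 listed start sites, and 1 more pair begins at base -33. The *Hspb1* stretch, at chr5:135887801-135887830 on the plus strand, begins at base -118 and holds 2 separate pairs. That of *Hspa1a*, at chr17:34972242-34972271 on the minus strand, begins at base -115, and the same 30 bases stand at the same distance in *Hspa1b*, at chr17:34959324-34959353. The promoters of this gene pair differed at 4 of 300 bases. The *Bag3* stretch, at chr7:128523603-128523632 on the plus strand, begins at base 21. No pair was found in the windows of *Dnajb1* and *Hspa4l*. A match of letters is a description and no evidence of binding.

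**Figure D1:**
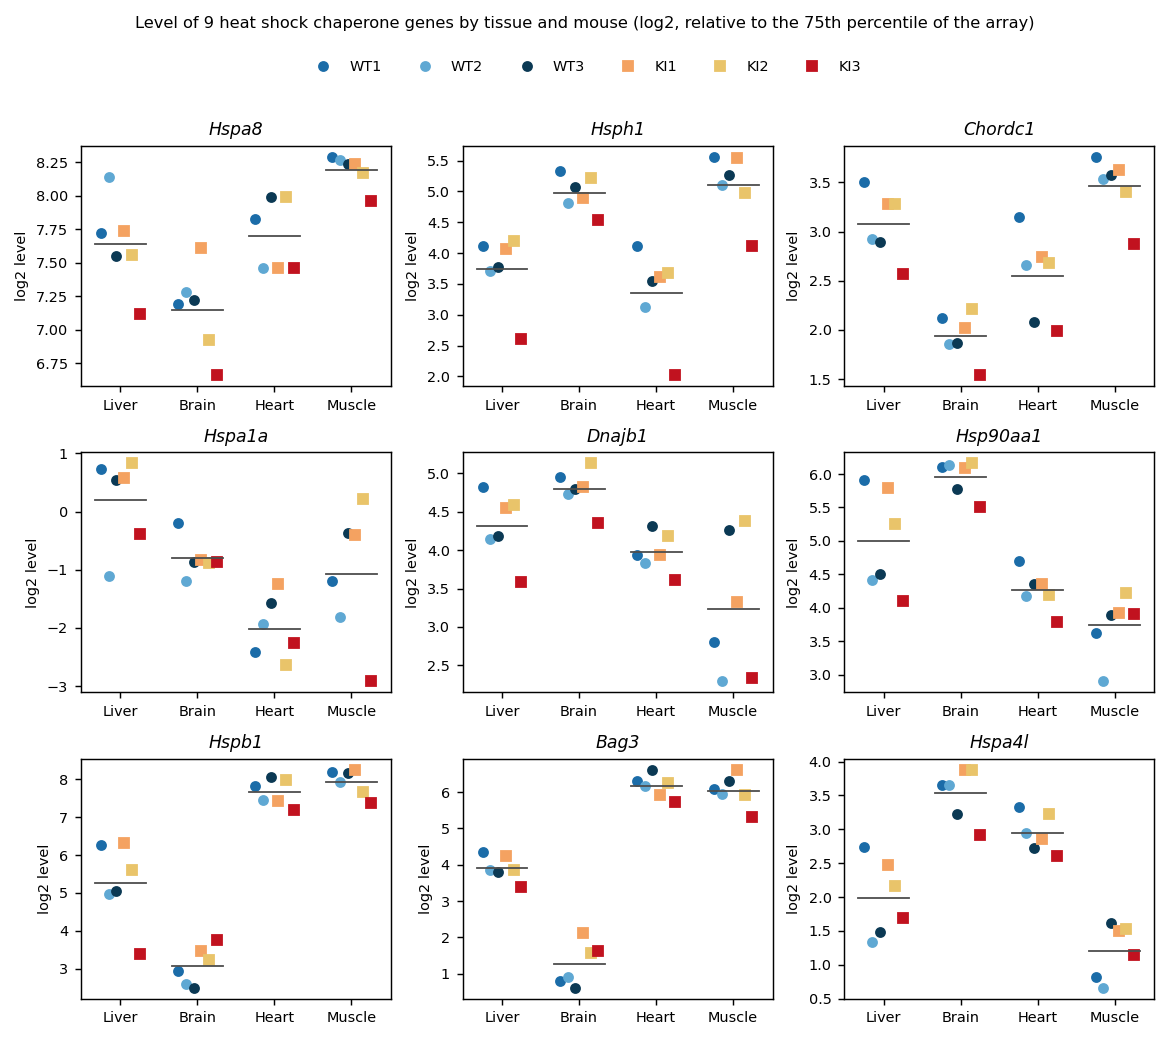
Level of the 9 measured genes (log2 above the array's 75th percentile) by tissue and mouse, with WT mice as circles, Rap1 KI/KI mice as squares and the mean of the 6 mice as a line. KI3, in red, lies lowest in all 4 tissues for Hsph1 and Chordc1, while Hspb1 and Bag3 lie far higher in heart and muscle than in brain.

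The mouse KI3 had the lowest level of *Hsph1*, which encodes an HSP110 nucleotide exchange factor, in every tissue. In the liver, its level was 4.12, 3.71 and 3.77 in WT1 to WT3 and 4.07, 4.19 and 2.60 in KI1 to KI3. In the heart, the values were 4.12, 3.13 and 3.55 in WT and 3.61, 3.67 and 2.02 in *Rap1* KI/KI mice. In the muscle, they were 5.56, 5.11 and 5.27 and 5.55, 4.97 and 4.12. In these 3 tissues KI3 lay 1.11, 1.11 and 0.85 below the next mouse on the log2 scale, more than the other 5 mice lay apart (0.49, 1.00 and 0.59). In the brain, the levels were 5.34, 4.82 and 5.07 in WT and 4.90, 5.22 and 4.53 in *Rap1* KI/KI mice, and KI3 was 0.28 below the next. Over the 4 tissues, KI3 lay 1.17 below the mean of the other 5 mice for this probe (2.25-fold) and 1.16 below it for the second probe of *Hsph1*.

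*Chordc1*, which encodes an HSP90 cochaperone with CHORD domains, had its lowest level in KI3 in every tissue as well. Its levels in the liver were 3.51, 2.93 and 2.89 in WT and 3.28, 3.28 and 2.57 in *Rap1* KI/KI mice. Its brain levels were 2.12, 1.86 and 1.87 and 2.02, 2.21 and 1.54. KI3 stood below the next mouse by 0.33 and 0.31 in these tissues, less than the range of the other 5 (0.61 and 0.36). In the heart, where the levels were 3.15, 2.66 and 2.08 in WT and 2.74, 2.68 and 1.99 in *Rap1* KI/KI mice, KI3 was only 0.08 below WT3. In the muscle they were 3.76, 3.54 and 3.58 and 3.63, 3.40 and 2.87, with KI3 0.53 below the next and the other 5 within 0.35. KI3 was 0.62 below the mean of the other mice over the 4 tissues (1.53-fold), with deviations that had an SD of 0.09 over the tissues.

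*Hspa8*, the constitutive HSP70 of the cytosol, was lowest in KI3 in 3 tissues by its brightest probe and in all 4 by its other 2 probes. In the liver, the brightest probe was at 7.72, 8.14 and 7.55 in WT and 7.74, 7.56 and 7.12 in *Rap1* KI/KI mice. Its brain levels were 7.19, 7.28 and 7.22 and 7.61, 6.92 and 6.66. In the muscle it was at 8.29, 8.27 and 8.24 and 8.24, 8.17 and 7.96. In the heart WT2, KI1 and KI3 had the same level of 7.46, and WT1, WT3 and KI2 lay at 7.83, 7.99 and 7.99. The 3 probes differed in the size of the shift, which was -0.44, -0.77 and -0.93 for KI3 against the mean of the other mice, in the order of their brightness. These shifts of *Hspa8*, *Hsph1* and *Chordc1* are what the genes were chosen on, and they carry no test.

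**Figure D2:**
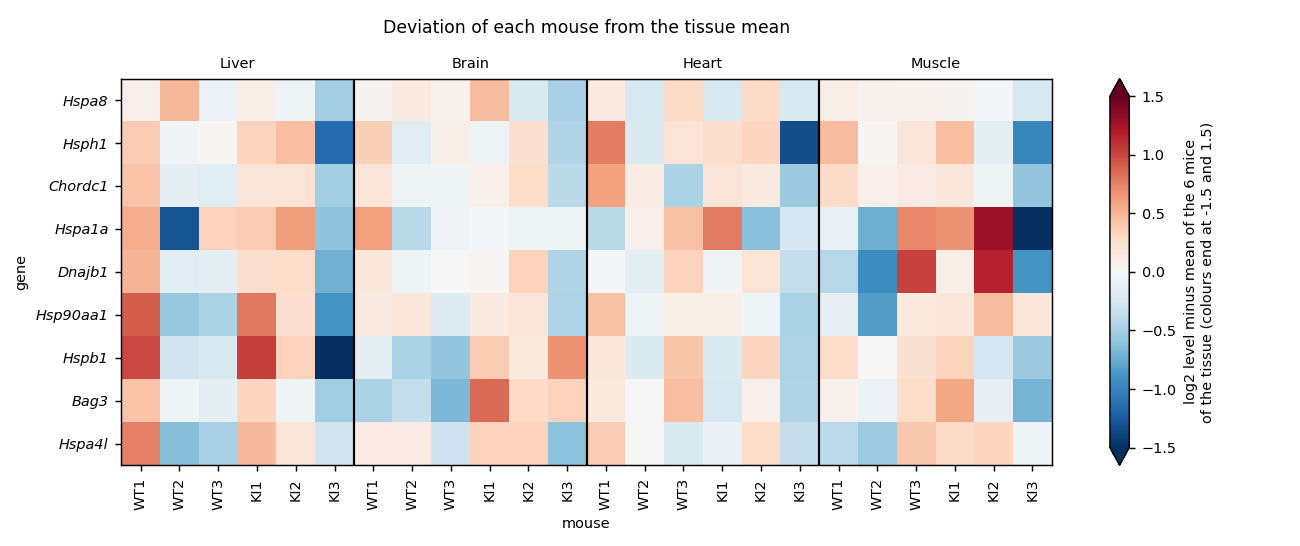
Deviation of each mouse from the mean of the 6 mice of a tissue (log2), for the 9 measured genes in rows and the 24 arrays in columns, red above and blue below the mean. KI3 is blue for all 9 genes in the liver and heart, and in the brain Hspb1 and Bag3 are above the mean in all 3 Rap1 KI/KI mice.

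Each of the other 6 genes was also below the tissue mean in KI3, averaged over tissues. For *Hspa1a*, the stress-inducible HSP70, KI3 lay 0.82 below the mean of the other 5 mice, for *Dnajb1*, an HSP40 partner of HSP70, 0.73, for *Hspb1*, a small heat shock protein, 0.66, and for *Hsp90aa1*, the inducible cytosolic HSP90, 0.50. The difference was 0.40 for both *Bag3*, which links HSP70 to small heat shock proteins, and *Hspa4l*, a second HSP110 gene. The size varied among tissues most for *Hspb1* and *Hspa1a*, with an SD of 1.03 and 0.80 over the 4 deviations of KI3. The *Hspb1* level of KI3 was 3.40 in the liver, 1.56 below the next mouse, but 3.75 in the brain, the highest of the 6. *Hspa1a* in KI3 was at -2.92 in the muscle, 1.11 below the next mouse, and at -0.86 in the brain, amid the others. Because near-identical transcripts come from *Hspa1b*, the signal of this probe may include both genes.

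KI3 was below the tissue mean for 9 of 9 genes in the liver and heart, 8 in the muscle and 7 in the brain, with mean deviations of -0.78, -0.49, -0.64 and -0.21. Without *Hspa8*, *Hsph1* and *Chordc1*, on which the choice was based, the counts were 6, 6, 5 and 4 of 6 and the mean deviations -0.81, -0.39, -0.65 and -0.09. The median deviation of all probes on the same arrays was -0.04, -0.08, -0.11 and -0.10. Averaged over tissues, KI3 was below 0 for all 9 genes, as it was for 62.9% of all 28737 probes tested in the 4 tissues. These counts include the 3 genes chosen for the shift, and nothing is read from them. KI3 was the lowest mouse in all 4 tissues for 2 of 9 genes and for 1.41% of all probes, and both genes were among the 3 chosen. Each other mouse was lowest in all 4 tissues for none of the 9 genes and for 0.00348% to 0.118% of probes. With the muscle array of KI3 left out, it was the lowest mouse in the other 3 tissues for 4 genes (*Hsph1*, *Chordc1*, *Dnajb1* and *Hsp90aa1*) and for 3.33% of probes, an alternative chosen after seeing the data. Of these, *Dnajb1* and *Hsp90aa1* were not among the 3. In this scaling, the 5-month-old mice WT1 and KI1 lay above 0 for all 9 genes, as for 60.7% and 57.0% of all probes. The highest of their mean deviations were 0.49 for *Hsph1* in WT1 and 0.45 for *Hspa1a* in KI1. WT2 was below 0 for 8 of the 9 genes.

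The shift of KI3 went with the brightness of a probe. In the brightest decile of probes, which held *Hspa8*, *Hsph1*, *Hsp90aa1*, *Hspb1* and *Bag3*, the median deviation of KI3 was -0.18, and in the dimmest decile it was -0.01. Quantile normalization brought the median of the brightest decile to 0 and left mean deviations of -0.82 for *Hsph1*, -0.77 for *Hspa1a*, -0.45 for *Dnajb1*, -0.41 for *Hspb1* and -0.40 for *Chordc1*. The deviation of *Hspa8* went from -0.37 to -0.19 and that of *Bag3* from -0.33 to -0.18. After quantile normalization *Hsph1* alone was lowest in KI3 in all 4 tissues, and *Chordc1* was lowest in 3. The deviations of WT1 went with brightness as well, with medians of -0.05 in the dimmest decile and 0.15 in the brightest. Quantile normalization brought the latter to 0.01. It left WT1 at -0.02 for *Hspa8*, -0.09 for *Dnajb1* and -0.10 for *Bag3*, and above 0 for the other genes. The 75th percentile of the KI3 array was the highest of the 6 in the liver (1389) and brain (1366), and was 852.5 in the heart, within the range of the others, and 505.8 in the muscle.

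**Figure D3:**
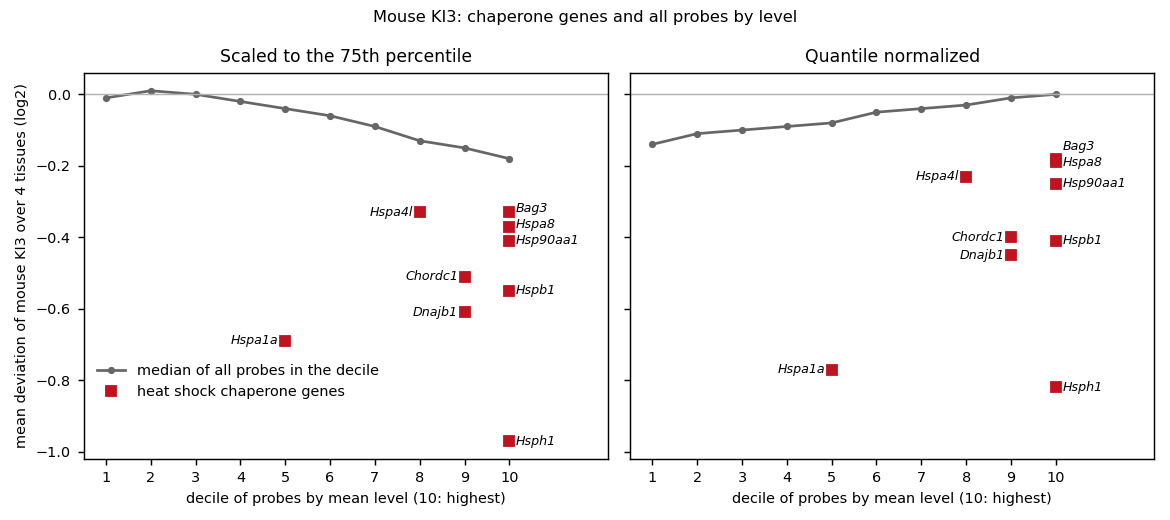
Mean deviation of KI3 over the 4 tissues (log2) against the decile of probes by mean level, with the median of all probes as a line and the 9 genes as squares, after scaling to the 75th percentile (left) and after quantile normalization (right). The line falls to -0.18 at the brightest decile on the left and ends at 0 on the right, and all 9 genes lie below it in both panels.

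The deviations of the 9 genes were correlated with each other across the 24 arrays, as a description with no test. Pearson's r of the 36 pairs ranged from -0.04 to 0.86 with a median of 0.43, and 35 were above 0. Without the 4 arrays of KI3 the range was -0.50 to 0.88, the median 0.32, and 29 were above 0. The arrays of 1 mouse share their animal, and all 24 share the scaling. Against the mean deviation of *Hspa8*, *Hsph1* and *Chordc1*, r was 0.62 for *Hspb1*, 0.53 for *Hsp90aa1*, 0.50 for *Bag3*, 0.49 for *Hspa4l*, 0.48 for *Dnajb1* and 0.35 for *Hspa1a*. The median of these 6 was 0.49, and the median over all 14014 genes compared was 0.18. Without KI3 the values of *Dnajb1* and *Hspa1a* were -0.04 and -0.16 and those of the other 4 were 0.31 to 0.57, against a median of 0.17 for all genes.

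Genes outside the group followed the same mean more closely than these 6 members did. The 10 with the highest r over 24 arrays were *Leo1* (0.91), a subunit of the PAF1 transcription elongation complex, *Fam98a* (0.89), *Tbpl1* (0.88), a TBP-related factor, *Ak6* (0.87), *Lig4* (0.87), the DNA ligase of end joining, *Thap1* (0.87), *Itgb1bp1*, *Arih1*, an ubiquitin ligase, and *Rai2* (0.86 each) and *Sac3d1* (0.85). Except for *Rai2*, with 3 tissues, each of them was lowest in KI3 in all 4 tissues, with mean deviations of -0.59 (*Leo1*) to -0.31 (*Fam98a*). In all, 2791 of the 14014 genes had an r at or above the median of the 6. The 5 genes with the lowest r were *Izumo4* and *Mfap2* (-0.85), *Morn1* (-0.84), and *Hif3a* and *Greb1l* (-0.82), with KI3 deviations of 0.52 to 0.86.

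Lists of related genes were set beside the 9, as counts and medians with no test. KI3 was below 0 for 10 of 10 chaperonin genes (median deviation -0.38), 15 of 16 cochaperone genes (-0.32), 13 of 14 other HSP40 genes (-0.27), 8 of 9 other HSP70 and HSP110 genes (-0.25), 3 of 3 other HSP90 genes (-0.45) and 5 of 5 other small heat shock protein genes (-0.17), where 62.9% of all probes were below 0. That share is not matched to the brightness of the listed genes, with which the shift of KI3 went. The median was -0.48 for the 6 members that were not the basis of the choice, -0.09 for all probes and -0.18 for the brightest decile of probes. That of the other small heat shock protein genes was close to the value of the brightest decile, but the genes were not matched to it by level. *Hsp90ab1*, the constitutive cytosolic HSP90, deviated by -0.48 and was lowest in KI3 in all 4 tissues. Among the brightest of the other lists, *Hspa5*, the HSP70 of the endoplasmic reticulum, deviated by -0.53, *Dnaja1* by -0.49, *Ahsa1*, an activator of HSP90, by -0.50, *Hspd1* and *Hspe1*, the mitochondrial chaperonin pair, by -0.36 and -0.35, and *Cryab* by -0.36. *Dnajc5*, a J domain protein of synaptic vesicles, deviated by 0.13. The rest of the 4 brightest cochaperone genes were *Bag1* and *Cdc37* (-0.27 each) and *Ptges3* (-0.37). For HSP70 they were *Hspa9* (-0.33), *Hspa4* (-0.21) and *Hspa14* (-0.15), and for HSP40 *Dnaja3* (-0.26) and *Dnajc7* (-0.19). For chaperonins they were *Cct5* (-0.16) and *Cct2* (-0.28), and for small heat shock proteins *Hspb6* (-0.11), *Hspb8* (-0.17) and *Hspb2* (-0.01). *Hsp90b1* and *Trap1* deviated by -0.45 and -0.36. The factor *Hsf1* deviated by -0.27 and its binding protein *Hsbp1* by -0.21.

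Other stress and state genes were set beside them. KI3 was below 0 for all 14 endoplasmic reticulum stress genes (median -0.44), of which 5 are also in the lists above, and for all 8 immediate early genes (-0.45), averaged over tissues. *Jun*, *Egr1*, *Dusp1* and *Fos*, the brightest of them, deviated by -0.53, -0.40, -0.23 and -0.62, unevenly over the tissues. *Jun* in KI3 was lowest of the 6 in the liver, by -1.62 from the mean, and highest in the brain, and *Fos* was highest in the heart. It was above 0 for both cold-inducible RNA binding protein genes, *Cirbp* (0.22) and *Rbm3* (0.32). Their r with the mean of *Hspa8*, *Hsph1* and *Chordc1* was -0.24 and -0.47, and 0.28 and 0.36 without KI3. Of the 8 glucocorticoid-responsive genes, KI3 was above 0 for 4, and the brightest, *Mt1*, *Tsc22d3*, *Mt2* and *Sgk1*, deviated by 0.90, -0.20, 1.29 and -0.13. The metallothionein genes *Mt1* and *Mt2* were 2.98 and 4.00 above the mean in the liver of KI3, and without the liver their mean deviations were 0.21 and 0.39. Circadian clock genes had a median of 0.02 in KI3.

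**Figure D4:**
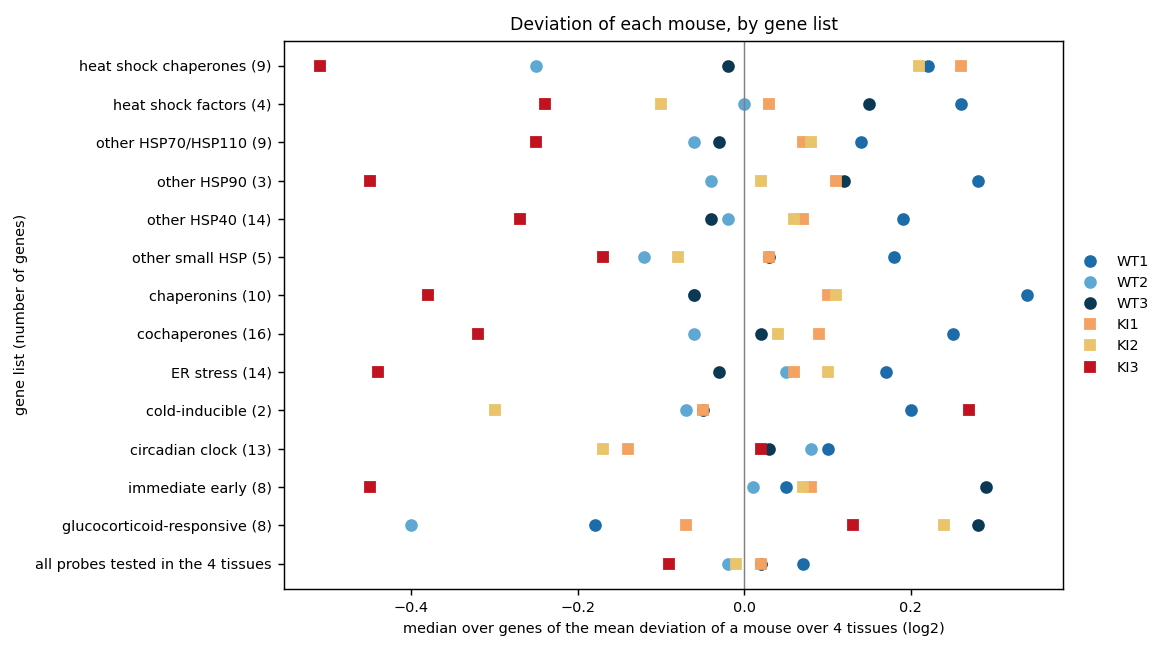
Median over the genes of a list of the mean deviation of each mouse over the 4 tissues (log2), with the number of genes tested in all 4 tissues in brackets, WT mice as circles and Rap1 KI/KI mice as squares. KI3 is the lowest mouse for the 9 heat shock chaperones, at -0.51, and for each other chaperone list, and the highest for the cold-inducible genes, at 0.27.

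The levels by tissue were not used to choose the genes. *Bag3* and *Hspb1*, whose proteins act together, had the largest differences between tissues of the 9 genes, high in the heart and muscle and low in the brain. *Bag3* had a mean level of 6.17 ± 0.31 (SD, n = 6) in the heart and 6.04 ± 0.43 in the muscle, 3.92 ± 0.34 in the liver and 1.28 ± 0.59 in the brain. The heart exceeded the brain by 4.89 (standard error 0.20, limma adjusted p = 1.5e-13), a 29.7-fold difference, and every mouse showed it. *Hspb1* was at 7.93 ± 0.35 in the muscle, 7.65 ± 0.35 in the heart, 5.27 ± 1.08 in the liver and 3.08 ± 0.49 in the brain. The muscle exceeded the brain by 4.85 (standard error 0.36, adjusted p = 4.1e-10), or 28.8-fold, in 6 of 6 mice. For both genes, heart and muscle did not differ beyond their spread (*Bag3* 0.13, adjusted p = 0.63; *Hspb1* 0.28, adjusted p = 0.56).

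*Hsp90aa1* and *Hspa4l* both had their highest level in the brain and the lowest in the muscle. *Hsp90aa1* ran from 5.96 ± 0.26 (SD, n = 6) in the brain through the liver (5.00 ± 0.76) and heart (4.26 ± 0.30) to 3.74 ± 0.45 in the muscle, a difference of 2.21 between the ends (standard error 0.28, limma adjusted p = 8.8e-07). Heart and muscle were not separated (0.51, adjusted p = 0.15), but were called after quantile normalization (0.69) and with normexp (0.67). *Hspa4l* was at 3.54 ± 0.39 (brain), 2.95 ± 0.28 (heart), 1.98 ± 0.57 (liver) and 1.21 ± 0.40 (muscle), and all 3 neighbouring steps passed the test (adjusted p = 0.047, 0.0025 and 0.011). With the slide as a term, brain and heart (0.33) and liver and muscle (0.00) were no longer separated, and the call between brain and heart held in 8 of 14 alternatives. The brain exceeded the muscle 5.02-fold. *Dnajb1* followed the same order of the ends, from 4.80 ± 0.26 in the brain to 3.23 ± 0.92 in the muscle (1.56, adjusted p = 0.00031), a call lost with the slide as a term (1.51). No neighbouring step passed, although the brain exceeded the liver in 6 of 6 mice. Brain and liver (1.54) and heart and muscle (0.89) were called after quantile normalization.

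*Hsph1* was highest in the muscle (5.10 ± 0.53, SD, n = 6) and the brain (4.98 ± 0.29), which the test did not separate (0.12, limma adjusted p = 0.76), and lower in the liver (3.74 ± 0.59) and the heart (3.35 ± 0.72). The muscle exceeded the heart by 1.75 (standard error 0.32, adjusted p = 0.00017), in 6 of 6 mice. *Chordc1* ran from 3.46 ± 0.31 in the muscle through 3.08 ± 0.34 in the liver and 2.55 ± 0.44 in the heart to 1.94 ± 0.24 in the brain. Its muscle exceeded its brain by 1.53 (adjusted p = 2.5e-06), and by 2.36 with the slide as a term. Muscle and liver were not separated (0.39, adjusted p = 0.11), although the muscle was higher in 6 of 6 mice. The difference was called with the slide as a term (1.36), after quantile normalization (0.59) and in the authors' table. *Hspa1a* was highest in the liver, at 0.20 ± 0.77, and lowest in the heart, at -2.01 ± 0.53, a difference of 2.21 (adjusted p = 0.00027) that was 1.82 and not called with the slide as a term, with brain (-0.80 ± 0.33) and muscle (-1.08 ± 1.15) between them and not separated (adjusted p = 0.6). *Hspa8* varied least, between 8.19 ± 0.12 in the muscle and 7.15 ± 0.33 in the brain (1.05, adjusted p = 2e-05). Its direction against the brain turned under quantile normalization, to -0.31 for muscle, -0.80 for liver and -0.52 for heart. These were called in the turned direction (limma adjusted p = 0.033, 9.6e-06 and 0.0012). The order of the brain and the other tissues for *Hspa8* thus depended on the scaling. It also depended on the probe. In the main scaling, the dimmest probe of *Hspa8* was highest in the liver (4.61) and lowest in the heart (3.81). Its brain mean (4.37) lay above that of the muscle (4.26). The probe second in brightness kept the ends, with 7.29 in the muscle and 6.68 in the brain. No tissue test is given for these probes. *Hsph1* between muscle and brain turned to -0.76 and was called as well (limma adjusted p = 0.022).

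The 9 genes were called in both directions in each of the 6 pairs of tissues. Between liver and brain, 4 were higher in the liver and 3 in the brain, where limma called 77.5% of all probes tested, 49.8% higher in liver and 27.7% higher in brain. Between liver and heart, 3 were higher in each (68.4% of probes called, 36.5% higher in liver and 32% in heart). Between liver and muscle, 4 were higher in each (72.9% of probes, 35.7% and 37.2%). Between brain and heart, 5 were higher in the brain and 4 in the heart (67.6% of probes, 24.5% and 43.1%). Between brain and muscle, 3 were higher in the brain and 4 in the muscle (71.7% of probes, 24.5% and 47.2%). Between heart and muscle, *Hspa4l* was higher in the heart, and *Hspa8*, *Hsph1* and *Chordc1* were higher in the muscle (47.5% of probes, 21.9% and 25.6%). At shares this large of all probes, the counts of the 9 genes do not stand out. Of the 41 called differences, 24 kept direction and call under each of 14 alternatives, among them all 10 of *Bag3* and *Hspb1* that were called. With the slide as a term, 3 genes were called between liver and heart and 4 between liver and muscle, against 6 and 8 without it. Leaving out WT1 left 5 genes called between liver and muscle, and leaving out KI2 left 5 between brain and heart. Within a slide, heart exceeded brain by 4.68 to 5.26 for *Bag3* and 4.73 to 4.84 for *Hspb1* in 2 mice. Over all probes the median difference was 0.51 between liver and brain and -0.45 between brain and muscle, and 0.34 and -0.33 after quantile normalization. That scaling moved the median of the brightest decile of probes between liver and brain from 0.99 to -0.17, and between brain and muscle from -1.14 to -0.19.

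Whether *Rap1* KI/KI mice differ from WT was tested within each tissue, and none of the 9 genes was called by limma (adjusted p under 0.05). Nor was any other probe, of 35240 tested in liver, 37836 in brain, 34848 in heart and 32382 in muscle (0% of each). At an unadjusted p under 0.05, 2 of the 9 genes passed in the brain and 0 in each other tissue, where 2.13% (liver), 2.62% (brain), 7.51% (heart) and 2.48% (muscle) of all probes did. These genes were *Bag3* and *Hspb1*.

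In the brain, *Bag3* was at 0.81, 0.92 and 0.61 in WT1 to WT3 and at 2.13, 1.57 and 1.63 in KI1 to KI3. All 3 *Rap1* KI/KI brains lay above all WT brains, the lowest of them 0.66 above the highest WT brain. The difference was 1.00 (standard error 0.22, limma adjusted p = 1, exact permutation p = 0.1). *Hspb1* in the brain was at 2.94, 2.61 and 2.50 in WT and 3.47, 3.23 and 3.75 in *Rap1* KI/KI mice, again without overlap. Its difference was 0.80 (standard error 0.22, limma adjusted p = 1, exact permutation p = 0.1). The exact p is two-sided and the smallest that 3 mice against 3 allow. Groups did not overlap at 7.74% of brain probes, 4.01% with *Rap1* KI/KI higher and 3.74% with it lower. With each mouse left out, the difference was 0.82 to 1.10 for *Bag3* and 0.67 to 0.93 for *Hspb1*. On the slide that held the brains of the 5-month-old WT1 and KI1 it was 1.33 and 0.53, and on the slide of the 4 brains of 2-month-old mice 0.84 and 0.94.

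The other small heat shock protein genes were looked at in the same brains. *Hspb8*, whose protein binds BAG3, was at 0.34, 0.06 and 0.32 in WT and 0.60, 0.75 and 1.58 in *Rap1* KI/KI mice (difference 0.74, standard error 0.30, limma adjusted p = 1). *Hspb6* was at 0.58, 0.38 and 0.43 in WT and 0.86, 0.60 and 1.47 in *Rap1* KI/KI mice (difference 0.52, standard error 0.26, limma adjusted p = 1). *Hspb2*, at -0.88, -1.20 and -0.82 in WT and -0.80, -0.82 and -0.03 in *Rap1* KI/KI mice, had groups that met at -0.82 without overlapping. *Cryab*, the brightest of the list, overlapped between the genotypes (difference 0.09, standard error 0.25), as did *Hspb3* (-0.37, 0.42) and *Cryaa* (0.00, 0.34), which are named after their values were seen, to complete the list. In all, 3 of the 6 tested genes of that list lay higher in all *Rap1* KI/KI brains, as 4.01% of all brain probes did, and KI3 had the highest value of each of these 3. The brain of KI3 also had the highest level of the astrocyte marker *Gfap*, at 5.41, against 1.98 to 3.36 in the other brains, while the neuron and glia markers summed to 8.39 to 8.52 in WT and 8.25 to 8.51 in *Rap1* KI/KI brains, with all 6 above background on every brain. The part of glia in these differences was not tested.

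**Figure D5:**
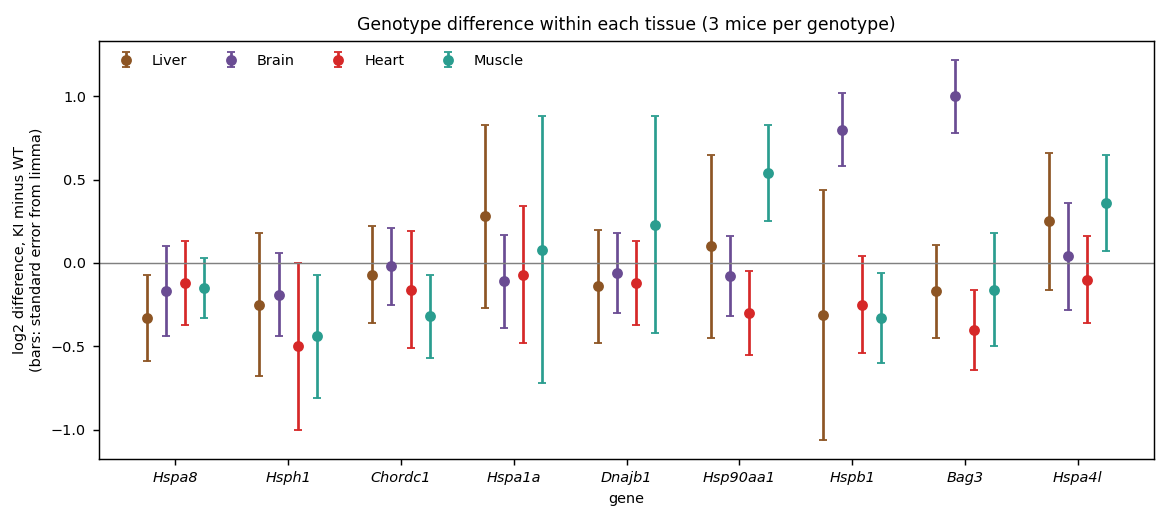
Rap1 KI/KI minus WT (log2) for the 9 genes within each tissue, with the standard error from limma as bars (3 mice per genotype). Bag3 at 1.00 and Hspb1 at 0.80 in the brain are the points farthest above 0, and none of the 36 differences passed an adjusted p of 0.05.

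The difference of *Bag3* had the other sign in the heart (-0.40, standard error 0.24), the liver (-0.17, 0.28) and the muscle (-0.16, 0.34). Whether the genotype difference itself depended on the tissue was tested with limma's F test, and *Bag3* was among the 2.54% of probes with an unadjusted p under 0.05, with an adjusted p of 1. No probe passed this test after adjustment (0%). *Hspb1* also had the other sign outside the brain, with -0.31 in the liver, -0.25 in the heart and -0.33 in the muscle, and its adjusted p was 1. In the muscle, *Hsp90aa1* was at 3.62, 2.90 and 3.89 in WT and 3.92, 4.22 and 3.91 in *Rap1* KI/KI mice, with groups that did not overlap but came within 0.02 of each other (0.54, standard error 0.29, adjusted p = 0.94). *Hspa8* in the muscle was 0.15 lower by its brightest probe (standard error 0.18), also without overlap, by 0.01. By each of its other probes the genotypes overlapped there (-0.26, standard error 0.29, and -0.17, 0.30). The muscles of KI1 and KI3 are those with the neutrophil markers at 6.51 and 3.65. Red cell markers summed to 7.04 to 7.83 in WT and 8.06 to 8.65 in *Rap1* KI/KI muscles, without overlap, with all 3 above background on every muscle. The part of these cells was not tested. Such separation occurred at 6.45% of muscle probes, 2.36% with *Rap1* KI/KI higher and 4.09% with it lower. None of the 9 genes was separated in the liver, where 5.85% of probes were (2.77% higher and 3.07% lower), or in the heart, where 14.7% were (6.03% higher and 8.69% lower).

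Averaged over the 4 tissues of a mouse, the difference between the genotypes was -0.34 (standard error 0.33) for *Hsph1*, -0.19 (0.14) for *Hspa8* and -0.14 (0.22) for *Chordc1*, and between -0.02 and 0.14 for the other 6 genes. Their limma adjusted p was 0.91 to 0.99, and 0% of all probes passed. Without KI3, *Hsph1* was at 0.06 and *Chordc1* at 0.08, and *Dnajb1* and *Hspb1* at 0.28 and 0.25. Of the related lists, none had a gene with an adjusted p under 0.05. In the heart, 6 of 16 cochaperone genes lay lower in all *Rap1* KI/KI mice, among them *Ahsa1* (-0.64, standard error 0.26) and *Cdc37* (-0.43, 0.24), and *Fkbp5*, named after its values were seen, lay higher (0.39, 0.20), where 8.69% of all heart probes lay lower and 6.03% higher without overlap. In the same hearts, 4 of 14 other HSP40 genes, 3 of 10 chaperonin genes, 2 of 7 other small heat shock protein genes, 1 of 3 other HSP90 genes, 1 of the 9 endoplasmic reticulum stress genes that are in no other of these lists and 0 of 10 other HSP70 and HSP110 genes lay lower without overlap, and none of these lay higher. The shares over all heart probes are not matched to the brightness of the listed genes, with which the shift of KI3 went. The hearts of KI1 and KI3 are those with fat cell markers at 7.41 and 8.58, whose part was not tested.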

How the data were processed

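The files of the authors hold intensity, the processed signal of 1-colour Agilent arrays as Feature Extraction 12.0.3.1 gives it after background subtraction and detrending, not normalized between arrays. Score values that the authors deposited in the series table are z-scores of the log10 signals within each array (recomputed to within 0.005 on 24 arrays). The test used on the arrays is not given in the sources used here. Spots of a probe were averaged, outlier-flagged and control spots left out, and log2 signals scaled to the 75th percentile of each array. Probes were named by accession through RefSeq (GRCm38.p6, 28331 of 55681 probes). A probe entered a test if it was well above background in 3 or more of a tissue's 6 arrays. Tests were run with limma 3.58.1 in R 4.3.3 (statmod 1.5.0), two-sided, Benjamini-Hochberg adjusted over all tested probes. A tested probe with an outlier-flagged spot was fitted without that array. No member was affected.

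Deviations are levels minus the mean of the 6 mice of the tissue. The same 6 mice gave all 4 tissues, by the animal numbers in the labels. Correlations between tissues of a mouse ran from -0.302 to 0.365 (median 0.0743, 36 pairs, 28737 probes), so the mouse was used as a block only in an alternative. That alternative used a single correlation for all probes (0.0387). The shift by mouse that *Hspa8*, *Hsph1* and *Chordc1* were chosen for thus stayed largely in the error of both fits. The members and the gene lists were chosen with earlier results of these data known. Named genes are all members, at most the 4 brightest of a list, the 10 genes most and 5 least like *Hspa8*, *Hsph1* and *Chordc1*, *Cirbp* and *Rbm3*, and marker genes of samples that stand apart. The procedure was tested on simulated data, where limma recovered 2% of brain differences of 1 log2 unit and 46% of those of 2 (37800 probes). The number of arrays limits the precision. Alternatives were quantile normalization, normexp with an offset of 50 on median signals in place of the planned mean signals, the authors' table, other filters, trend and robust eBayes, slide, age, mouse and each mouse left out.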

Additional observations from a re-analysis of the deposited data

How the results depend on the processing

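No member passed the genotype tests under any alternative run, and none of these fits called more than 2 probes, with 1 brain probe after quantile normalization. The interaction called 0 to 2 probes with a mouse left out (2 without WT1). With the mouse as a replicate block, 8 members instead of 7 were called between liver and brain, and the other tissue counts of members were 6, 8, 9, 7 and 4, as without the block. With a mouse left out, members called were 5 to 8 between liver and muscle (5 without WT1) and 5 to 9 between brain and heart (5 without KI2). The slide as a term gave 13907 called probes and 3 members between liver and heart, and 12563 and 4 between liver and muscle. With no filter, 35341 probes were called between liver and muscle, 33977 between brain and heart and 38122 between brain and muscle. Quantile normalization, normexp and the authors' table each left 1 member that was lowest in KI3 in all 4 tissues, and leaving out the muscle array of KI3 (chosen after seeing the data) gave 4 in the other 3 tissues. Of the 10 genes most like *Hspa8*, *Hsph1* and *Chordc1*, 3 remained after quantile normalization and 0 to 7 with a mouse left out, 0 without KI3. Directions turned for these differences, none of which passed the test in the main analysis except those of *Hspa8* between brain and the other tissues. After quantile normalization, *Hspa8* was at -0.31 (muscle minus brain), -0.80 (liver minus brain) and -0.52 (heart minus brain) and *Hsph1* at -0.76 (muscle minus brain), all called in the turned direction. With the same scaling *Dnajb1* was at -0.11 (liver minus heart), and the genotype difference over 4 tissues at -0.00 for *Hspa1a* and 0.06 for *Dnajb1* and *Hspb1*. Normexp gave -0.06 for *Hsph1* (muscle minus brain) and 0.01 for *Dnajb1* over tissues. The authors' table gave -0.03 for *Hspa8* (liver minus brain) and -0.01 for *Hsph1* (muscle minus brain), and the slide as a term -0.10 for *Hsph1* (liver minus heart). With a mouse left out, the genotype difference over the 4 tissues was -0.55 to 0.06 for *Hsph1*, -0.26 to 0.08 for *Chordc1*, -0.24 to 0.40 for *Hspa1a*, -0.27 to 0.28 for *Dnajb1*, -0.08 to 0.29 for *Hsp90aa1*, -0.22 to 0.25 for *Hspb1* and -0.10 to 0.25 for *Bag3*. *Hspa8* between heart and liver ran from -0.06 to 0.22, *Hsph1* between muscle and brain from -0.05 to 0.22 and *Hspa1a* between brain and muscle from -0.19 to 0.60. The cause of these turns was not tested. With 3 mice per genotype, a difference of 1 log2 unit was rarely recovered in simulated brains.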
